A study of Mus musculus with 6 samples.

Results

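Probes that an expression array names by a stretch of the genome, and not by a gene or an accession, were compared between TGF-β1-treated and control mouse airway epithelial organoids grown flat (2D-MAOs). The members were all probes for transcripts whose name starts with a chromosome. Of the 56605 probes on the array 4450 did, and 4449 of these had an unmarked spot on all 6 arrays. A member was tested when 3 or more of the 6 arrays showed it well above background, and 2104 members were.

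The cultures came from lung airway epithelial cells of C57BL/6 mice. In the treated group 3 cultures received TGF-β1 on day 3 and were collected on day 7, and 3 control cultures were kept without it. Both groups were in medium lacking noggin, an inhibitor of bone morphogenetic proteins, and A83-01, an inhibitor of TGF-β receptor kinases. The cultures of a group were biological replicates by the study's description, and no concentration of TGF-β1 is named for the arrays. The RNA of each culture was labelled with 1 dye and measured on an array of its own.

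Much of the genome outside protein-coding genes is transcribed. Among the products are long intergenic noncoding RNAs, which are often spliced, carry no long reading frame and tend to be present at low levels and in few tissues. Some act on chromatin or on neighbouring genes, and for most no function is known. TGF-β1 is a secreted growth factor whose receptors phosphorylate SMAD proteins, which bind DNA and change transcription, and airway epithelial cells respond to it with changes in adhesion and matrix genes. The files do not say which transcript a member was designed for, so a signal here is the RNA bound by a probe placed in an interval, and noncoding status was not tested.

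A member's name gives the chromosome, start and end of its interval in mouse build mm9, which the file headers state, and a suffix F or R. The suffix is read here as the strand, F for forward and R for reverse, although the files do not define it. There were 2227 F probes and 2221 R probes, and 1 member had no suffix. The members carried 4061 names over 3229 intervals on 20 chromosomes, so that some intervals held several probes. Interval length ranged from 62 to 538251 bp with a median of 10601 bp. A probe is far shorter than most of these intervals, and its position inside one is not given in the files. No gene context or sequence is given, because no genome or annotation of mm9 was used here.

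The treatment check and the cell markers were read from probes with RefSeq accessions. Tgfbi, Mmp10, Fstl1 and Fn1, which encode secreted proteins or a matrix protease, rose by log2 fold changes of 4.58, 4.47, 2.75 and 2.22. Markers of epithelium, basal, club and ciliated cells were well above background on all 6 arrays for 15 of 15 genes. Of 6 fibroblast markers 2 were, Dcn and Pdgfra, while Col3a1 and Lum were on no array and Col1a1 and Col1a2 were on the TGF-β1 arrays alone. The summed linear signal of the 6 markers was 548 to 627 in the controls and 681 to 2410 with TGF-β1. For the 4 leukocyte markers it was 1680 to 2920 and 3300 to 4960, with Ptprc and Lyz2 above background on no array. Most of that sum was Cd68, which changed by 0.90 and was not called, while Cd3e changed by −0.24. For the 4 basal markers it was 26400 to 44500 and 53800 to 131000. The 3 ciliated markers summed to 1770 to 2080 and 2430 to 2970. Foxj1 was called at 1.47, and Tppp3 and Dnah5, at 0.26 and 0.34, were not called. The 3 club markers summed to 165000 to 172000 and 156000 to 164000. Most of that sum was Cyp2f2, which changed by −0.066. Scgb1a1 changed by −2.265 and Scgb3a2 by 1.05, and no club marker was called. The part of these shifts in the changes of the members was not tested.

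Members were detected less often than coding probes and more often than noncoding RefSeq probes. The share tested was 47.3% of the members, 57.4% of all probes, 67.9% of the probes with a coding RefSeq accession and 34.4% of those with a noncoding one. Of the 4449 members 1765 were well above background on all 6 arrays and 2014 on none. By array, 44.3%, 43.4% and 49.0% of the members were well above background in control replicates 1, 2 and 3. On the TGF-β1 arrays the shares were 47.8%, 50.5% and 44.5%. The groups overlapped, and control replicate 3 and TGF-β1 replicate 3 each lay on the other group's side. There were 9 members above background on the 3 TGF-β1 arrays and no control array, and 5 with the reverse.

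Detection was also read by length and strand. With the members in 4 groups by interval length, 40.6% of the shortest, up to 1738 bp, were tested, and 50.5%, 48.3% and 49.7% of the groups of rising length. Of the F probes 46.0% were tested and of the R probes 48.6%. Of 832 intervals probed on both strands 261 were tested on both, 371 on one strand and 200 on neither.

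TGF-β1 replicate 3 stood apart from the other treated arrays. The Euclidean distance over the 2104 members was 16.2 between TGF-β1 replicates 1 and 2. Replicate 3 lay 25.6 and 22.2 from them and 18.8 from control replicate 3. The controls lay 19.3 to 21.0 from each other. Both arrays numbered 3 were in the second row of the slide and the other 4 in the first, and all were scanned at the same time. Counts are therefore also given without TGF-β1 replicate 3.

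At an adjusted p under 0.05 (limma, Benjamini-Hochberg over all 32460 probes tested) and a change of 2-fold or more, 10 members rose and 5 fell. This was 0.475% of the members in the upward direction, where the share over all probes was 0.983%, and 0.238% in the downward direction, where it was 0.209%. In both directions together 0.713% of members were called, beside 1.19% of all probes, 1.26% of coding RefSeq probes and 0.938% of noncoding RefSeq probes. Without TGF-β1 replicate 3 the counts were 66 higher and 31 lower, or 3.14% and 1.47% of members beside 3.57% and 1.3% of all probes. With scaling to the 75th percentile in place of quantiles they were 18 and 3, or 0.856% and 0.143% of members beside 1.26% and 0.194% of all probes. The 4 arrays of slide row 1 alone gave 86 and 37 (4.09% and 1.76% beside 4.44% and 1.94%), and array weights gave 76 and 24 (3.61% and 1.14% beside 3.84% and 1.38%). In bulk RNA, fewer cells of a type and less RNA per cell cannot be told apart.

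The spread between replicates was close to that of noncoding RefSeq probes. The median SD within groups was 0.237 log2 units for members, 0.236 for noncoding and 0.184 for coding RefSeq probes. Without adjustment 550 members had p under 0.05 in limma, 267 higher and 283 lower, which was 26.1% beside 26.0% of all probes. The 3 TGF-β1 values all lay above the 3 control values for 281 members, or 13.4% beside 13.8% of all probes. They all lay below for 355 members, or 16.9% beside 16.0%. With 3 against 3 the exact two-sided permutation test of a single member reaches no lower than p = 0.1, the value of every member whose groups do not overlap.

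The centre of the distribution lay close to 0. The median log2 fold change of the members was −0.068, with quartiles of −0.30 and 0.23, beside −0.046 over all probes, −0.067 over coding and −0.083 over noncoding RefSeq probes. There were 941 members above 0 and 1163 below. The median's sign turned with the scaling, to 0.031 at the 75th percentile, where the median over all probes was −0.055. From the shortest to the longest of the 4 length groups the medians were 0.042, −0.021, −0.12 and −0.11, and 0.16, 0.082, −0.046 and −0.048 with that scaling. Changes of 2-fold or more, called or not, were seen in 44 members upwards and 14 downwards.

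**Figure D1:**
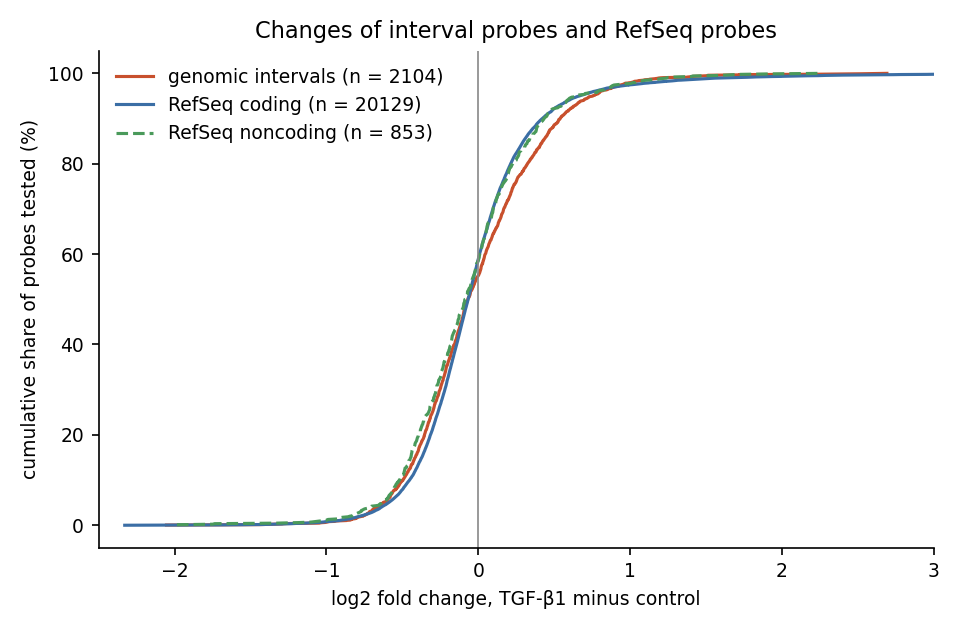
Cumulative share of probes tested (%, y axis) against log2 fold change of TGF-β1 over control (x axis, with the far tails beyond the axis limits) for 2104 interval probes, 20129 coding and 853 noncoding RefSeq probes. The curves cross 0 at similar heights, with medians of −0.068, −0.067 and −0.083.

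The increase with the lowest adjusted p was at chr9:13349094-13352732 on the F strand. Its normalised log2 signal was 6.82, 7.05 and 7.36 in the controls and 8.75, 8.95 and 8.70 with TGF-β1. All treated values lay more than 1 log2 unit above all controls. The log2 fold change was 1.72 ± 0.167 (SE, n = 3 and 3) with an adjusted p of 0.0074 in limma. It was called without each of the 6 arrays in turn, with changes of 1.59 to 1.86, and it was the 1 member of the 15 for which that held. A nearby F probe, at chr9:13281056-13281599, also rose, by 1.20 ± 0.209 (adjusted p = 0.0429 in limma), from 5.83, 6.15 and 6.57 to 7.38, 7.57 and 7.19. The groups did not overlap there either. Both intervals lie inside a 200 kb interval probed on the other strand, chr9:13224147-13424397 R, whose change was 0.17 (adjusted p = 0.808 in limma), with overlapping groups.

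On chromosome 2, neighbouring probes on opposite strands rose together. The R probe of chr2:48807211-48843911 read 5.27, 5.45 and 5.76 in the controls and 6.64, 6.80 and 6.45 with TGF-β1, a change of 1.13 ± 0.167 (adjusted p = 0.0264 in limma). The F probe of chr2:48826955-48827592, inside that interval, read 6.93, 7.09 and 7.49 against 8.23, 8.39 and 7.98, a change of 1.03 ± 0.186 (adjusted p = 0.0484). In both probes TGF-β1 replicate 3 was the lowest treated array and still above every control. A further F probe inside the same interval, chr2:48818825-48822612, differed by 0.93 (adjusted p = 0.0604). The F probe of the 169 kb interval that spans all of them, chr2:48805604-48974396, differed by 0.16 (adjusted p = 0.575), with overlapping groups.

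The called probe on chromosome 3, chr3:30077338-30080281 R, lay in a stretch with several R probes. It read 7.60, 7.87 and 8.21 in the controls and 8.93, 8.88 and 8.92 with TGF-β1, a change of 1.02 ± 0.170 (adjusted p = 0.0386 in limma). In the 101 kb from chr3:30032959 to 30133959, a stretch singled out after its values were seen, 8 R probes were on the array and 8 were tested. None of the 8 overlapped between the groups, where 13.4% of members did not overlap upwards. The changes were 0.72 to 1.02 with a median of 0.80, and 5 of the 8 had an adjusted p under 0.05 in limma. Of these, chr3:30099759-30133959 R read 9.59, 9.70 and 10.16 against 10.72, 10.72 and 10.99, a change of 0.99 (adjusted p = 0.0493). The F probe of that same interval, the 1 of 2 F probes of the stretch that was tested, read 3.54, 3.82 and 4.03 against 3.73, 3.68 and 4.25. Its change was 0.087 (adjusted p = 0.80), with overlapping groups. The R probes had a median of 0.80 also without TGF-β1 replicate 3, 0.91 with 75th percentile scaling and 0.55 with normexp background.

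**Figure D2:**
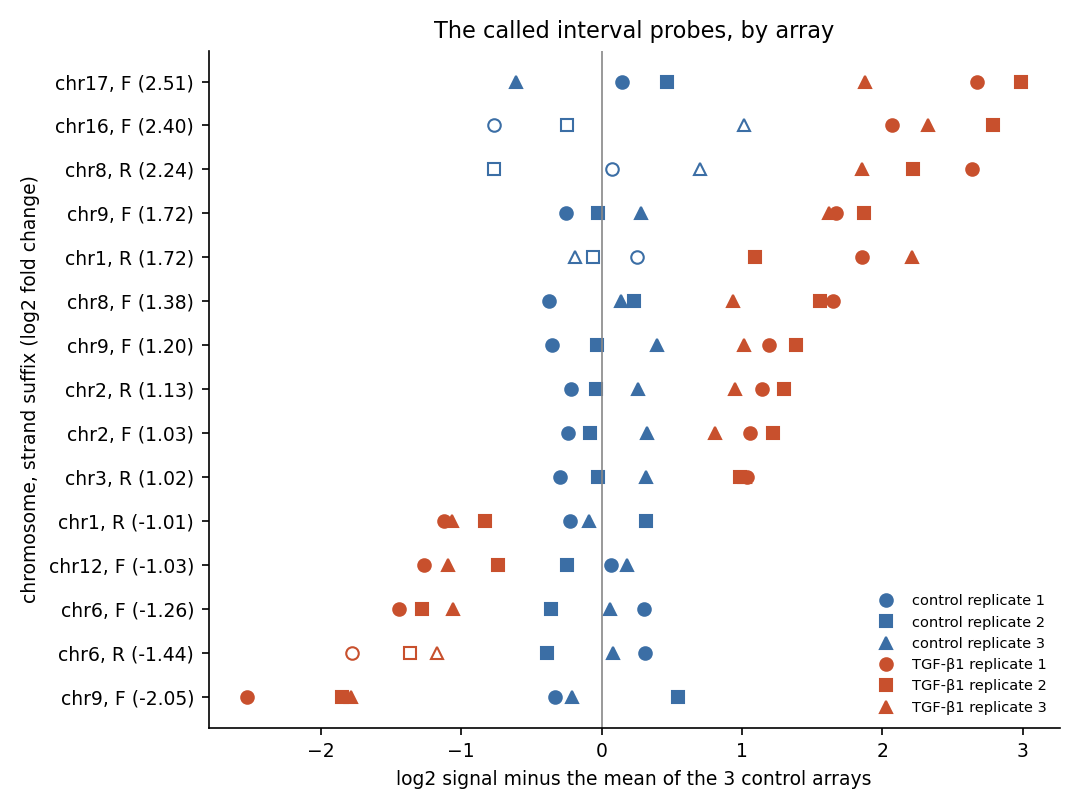
Log2 signal of each array minus the mean of the 3 control arrays (x axis) for the 15 called interval probes, named by chromosome and strand with their log2 fold change (y axis). Blue marks control and orange TGF-β1 arrays, the shape gives the replicate, and open symbols mark a group not well above background on any array. The 3 treated values lie on one side of the 3 control values in each row.

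In 3 further called increases no control array was well above background. At chr16:23543837-23560153 F the treated values were 4.68, 5.39 and 4.93. Their mean was at least 2.03-fold above the mean level at which probes of the control arrays became well above background (adjusted p = 0.0482 in limma). At chr1:74084292-74138492 R they were 4.80, 4.04 and 5.16, with a mean at least 1.61-fold higher (adjusted p = 0.0361). The value of 4.04 lay below that level on control replicates 1 and 2, which was 4.12 and 4.19. At chr8:122728333-122752130 R they were 4.93, 4.50 and 4.14, with a mean at least 1.46-fold higher (adjusted p = 0.0372). The value of 4.14 lay below the level of control replicate 2. These members were above background on the 3 TGF-β1 arrays and passed the filter on that group alone. Their adjusted p values therefore rest on control signals not well above background.

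A pair of called increases were above background on 2 of 3 control arrays and are named after their values were seen. At chr17:10057283-10075014 F the signal was 4.21, 4.53 and 3.46 in the controls and 6.74, 7.05 and 5.94 with TGF-β1, a change of 2.51 ± 0.354 (adjusted p = 0.0239 in limma). The lowest array of each group was its replicate 3. At chr8:122920901-123008463 F it was 4.18, 4.78 and 4.69 against 6.19, 6.10 and 5.49, a change of 1.38 ± 0.240 (adjusted p = 0.0429). The groups did not overlap in either.

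The largest called decrease was chr9:78107225-78118850 F. It read 8.39, 9.27 and 8.51 in the controls and 6.20, 6.87 and 6.93 with TGF-β1, so that each treated array was below every control by more than 1 log2 unit. It fell by 2.05 ± 0.287 on the log2 scale (adjusted p = 0.0235 in limma). The overlapping interval on the same strand, chr9:78104935-78116974, read 8.68, 9.34 and 8.36 against 7.10, 7.66 and 7.64. Its log2 fold change was −1.33 (adjusted p = 0.0647). The groups did not overlap in either probe.

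The other called decreases were single probes. At chr6:125330524-125410249 F the signal was 6.61, 5.94 and 6.36 in the controls and 4.86, 5.03 and 5.25 with TGF-β1, and it fell by 1.26 ± 0.197 (adjusted p = 0.0313 in limma). At chr1:152001112-152012796 R it was 7.32, 7.86 and 7.45 against 6.42, 6.71 and 6.47, and it fell by 1.01 ± 0.174 (adjusted p = 0.0420). The latter call was lost whichever of the 6 arrays was left out. At chr6:67052066-67119366 R the controls read 5.27, 4.58 and 5.04 and no TGF-β1 array was well above background. The mean was at least 2.29-fold lower (adjusted p = 0.0324). This member passed the filter on the control arrays alone, so its adjusted p rests on treated signals not well above background. At chr12:88235624-88264465 F, named after its values were seen, 2 control arrays and 1 TGF-β1 array were above background, and the change was −1.03 ± 0.183 (adjusted p = 0.0463).

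How far these calls held differed between members. Of the 15, 14 were also called without TGF-β1 replicate 3 and 9 without control replicate 3. Leaving out replicate 1 of either group left 1, and leaving out replicate 2 of either group left 2. With slide row as a block 9 of the 15 stayed called, and with the replicate number as a block 3. Of the 15, 4 had passed the filter on 1 group alone. With normexp background the 2 largest calls on chromosome 9, chr9:13349094-13352732 F and chr9:78107225-78118850 F, remained. The other 9 increases were then 0.35 to 1.00 and the other 4 decreases −0.64 to −0.21, and 7 of these 13 kept an adjusted p under 0.05.

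A further 9 members had an adjusted p under 0.05 in limma with a change under 2-fold. They were 6 increases and 3 decreases, and 4 of the increases were R probes of the chromosome 3 stretch. Of the 3 decreases, chr5:74340084-74346709 R and chr15:84752337-84752984 R each changed by −0.80. The other, chr8:80581177-80621652 R, passed the filter on the control arrays alone, with no TGF-β1 array above background. Its mean was at least 1.74-fold lower. Over all members 1.14% had an adjusted p under 0.05, beside 1.6% of all probes.

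The 2 largest increases of all members tested were not called. With another R probe they lay within 80.6 kb of chromosome 2, and all 3 are named after their values were seen. The probe of chr2:128137419-128141735 read 3.16, 4.26 and 5.37 in the controls and 7.45, 7.39 and 6.01 with TGF-β1. Its change was 2.69 ± 0.593 (adjusted p = 0.0729 in limma). It was well above background on 1 control array, so the size and rank of its change rest partly on signals below that level. That of chr2:128211990-128215223 read 4.79, 5.49 and 6.16 against 8.71, 8.60 and 6.98, a change of 2.61 ± 0.516 (adjusted p = 0.0577). That of chr2:128217275-128217972 read 4.51, 2.27 and 4.46 against 6.34, 6.18 and 4.78, a change of 2.02 ± 0.664 (adjusted p = 0.128). It was well above background on 2 control arrays. The groups did not overlap in any of the 3, and in each TGF-β1 replicate 3 was the lowest treated array. Without that array the 3 were called, with changes of 2.51 to 3.17, where 3.14% of members and 3.57% of all probes were called higher. As it was the lowest treated array in each, leaving it out could only raise the changes. With normexp background the changes were 0.56 to 1.56 and 2 were called, and with 75th percentile scaling 1 was called.

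Intervals that touch or lie close together were then read as neighbourhoods, joined where the gap was at most 10 kb with strand ignored. The tested members formed 1187 neighbourhoods, of which 521 held 2 or more tested probes and 1438 probes in all. In 252 of the 521 (48.4%) all changes lay on one side of 0, above in 115 and below in 137. With gaps of 1, 50 or 100 kb this share was 48.8%, 46.2% and 44.7%. Among those with 2 or more probes, 7 held a called member, and 2 held more than 1, those on chromosomes 9 and 2 described above. With slide row as a block, chr9:13281056-13281599 F (adjusted p = 0.0534 in limma) and chr2:48826955-48827592 F (adjusted p = 0.059) were not called, and then neither neighbourhood held more than 1. With the replicate number as a block their adjusted p was 0.106 and 0.118.

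The neighbourhoods with the most tested probes had medians near 0, with 1 exception. In chr1:138442536-138632310, where 11 of 19 probes were tested, the median was 0.050 with a range of −0.40 to 0.33. In chr6:30983012-31293337 the 8 tested probes had a median of −0.14 and a range of −0.51 to 0.51. In chr11:69184157-69201732 the 8 had a median of 0.091 and a range of −0.53 to 0.46. None of these probes was called.

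The exception was chr13:28477490-28985604, with 7 R probes tested, a median of 0.89 and none called. The probe of chr13:28952570-28953234 read 5.85, 5.80 and 6.67 in the controls and 8.08, 8.14 and 6.54 with TGF-β1, a change of 1.48 ± 0.451 (adjusted p = 0.114 in limma). The probe of chr13:28551902-28975446 read 7.27, 7.82 and 7.99 against 8.99, 8.95 and 7.95, a change of 0.94 (adjusted p = 0.133). In both, TGF-β1 replicates 1 and 2 were above every control and replicate 3 was among the controls. Without TGF-β1 replicate 3, 4 of the 7 were called, with changes of 1.28 to 2.00, where 3.14% of members were called higher. It was the lowest treated array in each of these 4, so leaving it out could only raise their changes. The interval that spans the whole neighbourhood on the same strand had a change of −0.24.

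**Figure D3:**
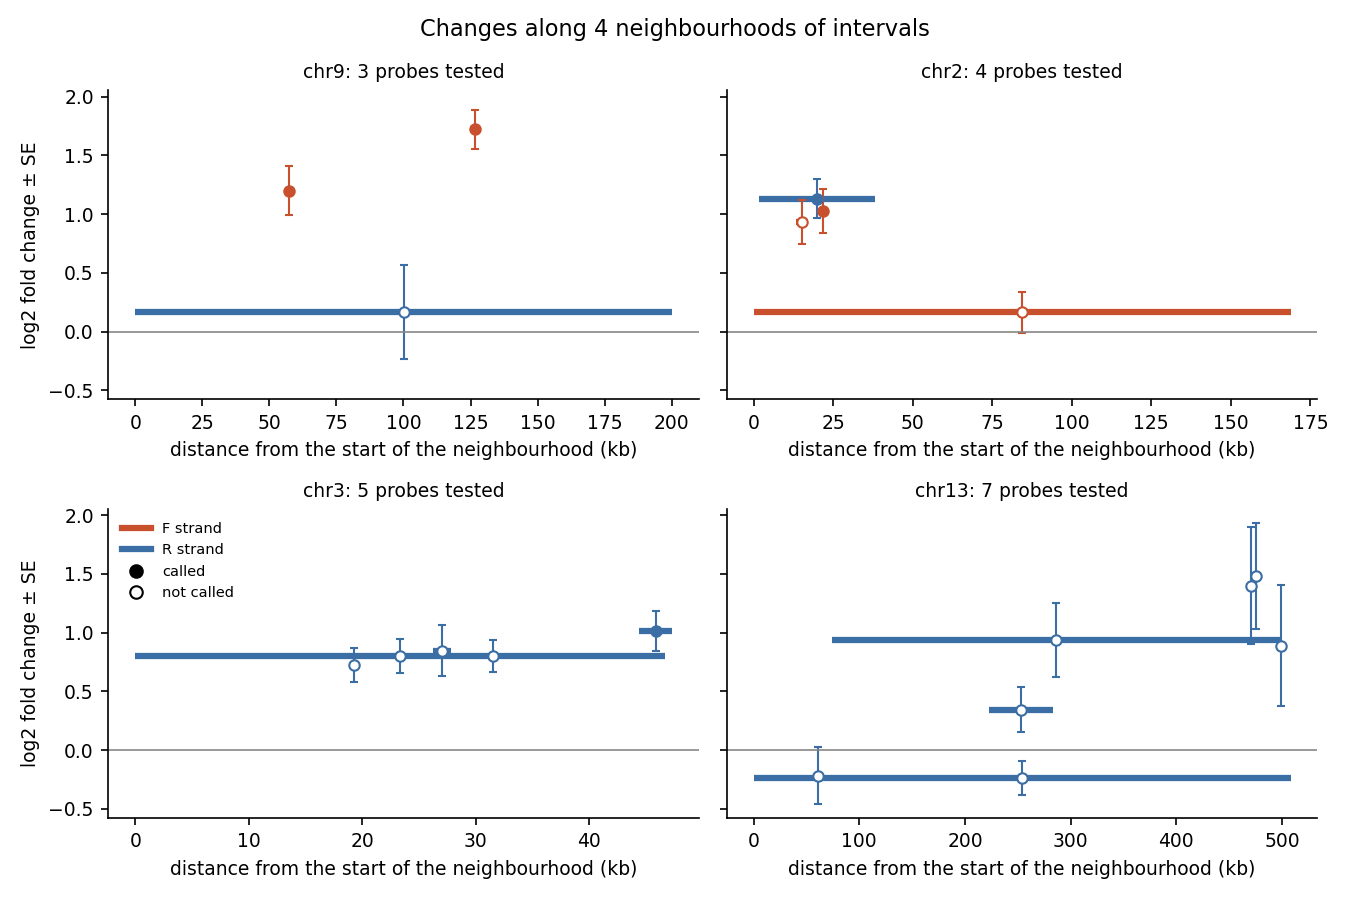
Log2 fold change ± SE (y axis) of each tested probe along 4 neighbourhoods, at the distance of its interval from the start of the neighbourhood in kb (x axis). Bars span the interval and the colour gives the strand, with filled points for called probes. On chromosome 9 and chromosome 2 called probes of 1.03 to 1.72 lie within long intervals whose own probes changed by 0.17 and 0.16.

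Pairs of probes gave a measure of how local the changes were. The log2 fold changes of both probes of an interval on the same strand had a Pearson r of 0.504 over 147 pairs, with a median absolute difference of 0.162 and the same sign in 77.6%. For neighbours with a gap up to 10 kb r was 0.471 over 121 pairs, and 0.376 without the pair of largest change. For overlapping neighbours it was 0.33 over 362 pairs and for gaps of 10 to 100 kb 0.361 over 197 pairs, or 0.263 without the pair of largest change. From 100 kb to 1 Mb it was 0.0959 over 437 pairs and beyond 1 Mb 0.0611 over 572 pairs. All pairs share the same 6 arrays, and probes of an interval may share sequence, so the values are descriptions across intervals. The order of the same strand over the other strand, and of gaps up to 100 kb over those beyond, also held with 75th percentile scaling, with normexp background and without TGF-β1 replicate 3.

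For probes on opposite strands of an interval the likeness was lower, as a description without a test. Over 261 intervals tested on both strands r was 0.144 and the median absolute difference 0.311. Both strands were above 0 in 46 intervals, both below in 99 and on opposite sides in 116.

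**Figure D4:**
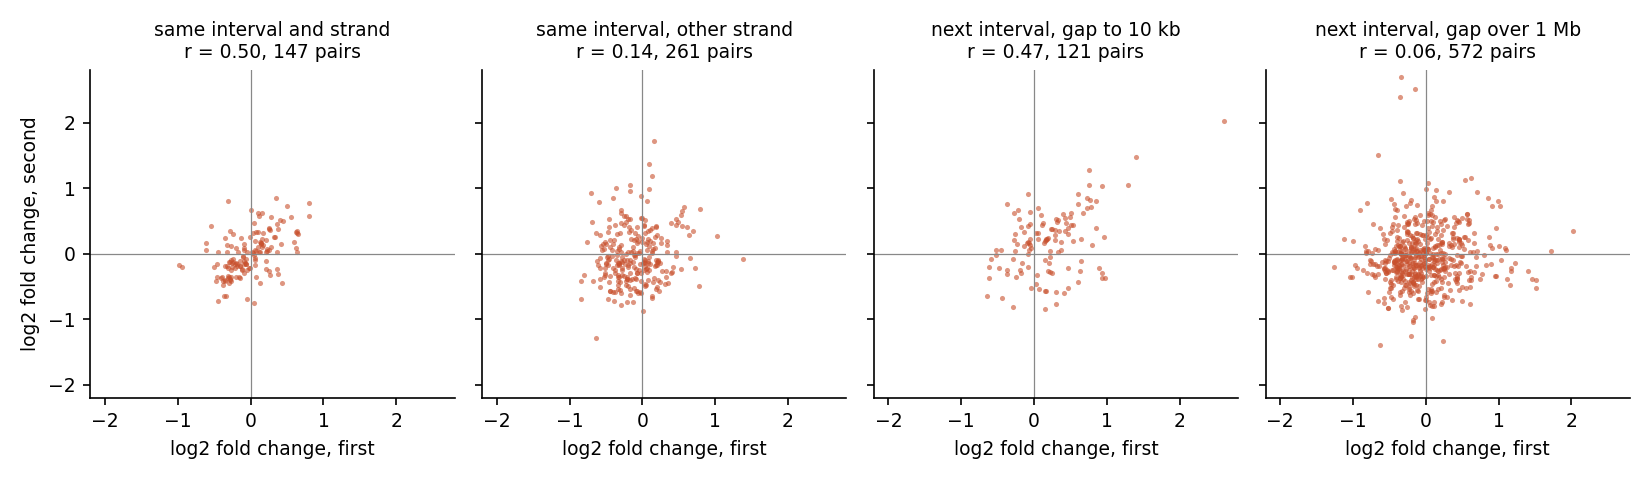
Log2 fold changes of the first (x axis) and second (y axis) probe of each pair, for probes of the same interval and strand, of the same interval on opposite strands, of next intervals up to 10 kb apart and of next intervals over 1 Mb apart. Points lie closest to a rising diagonal in the first panel, with r of 0.50, 0.14, 0.47 and 0.06.

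Unequal change of the strands was tested as the difference of their log2 signals within each array. In limma, adjusted over the 261 intervals, 4 (1.53%) had an adjusted p under 0.05, and 54 had an unadjusted p under 0.05. At chr8:122920901-123008463 the F probe rose by 1.38 and the R probe changed by −0.077, reading 5.61, 5.84 and 5.92 against 5.71, 6.00 and 5.42. The difference was 1.46 ± 0.227 (adjusted p = 0.0256). At chr1:74084292-74138492 the R probe was above background on the 3 TGF-β1 arrays and no control array, at least 1.61-fold higher, so that the size of its strand difference is not a measurement and its place among the 4 rests on signals below background. The F probe changed by 0.16, reading 7.56, 7.44 and 7.48 against 7.47, 7.60 and 7.88. A shorter R interval inside it, chr1:74114371-74115267, changed by −0.23.

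In the other 2 intervals the changes of the strands had opposite signs. At chr4:44181997-44249172 the F probe read 7.49, 7.58 and 7.59 in the controls and 6.72, 7.26 and 7.47 with TGF-β1, a change of −0.40. The R probe read 5.18, 5.45 and 5.44 against 6.03, 6.45 and 6.13, a change of 0.85. The difference was −1.25 ± 0.239 (adjusted p = 0.0399). The groups did not overlap on either strand. At chr11:69106907-69112857 the F change was −0.70 and the R change 0.92, with the R probe above background on 1 control and 2 TGF-β1 arrays, and the difference was −1.62 ± 0.329 (adjusted p = 0.0452). The count of 4 rested on few arrays. It was 32 without TGF-β1 replicate 3 and 1 without replicate 2 of that group. It was 0 in limma without TGF-β1 replicate 1 or any 1 control array, where 28 to 44 intervals had an unadjusted p under 0.05. With normexp background 6 intervals were called, of which 1 was among the 4.

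A neighbouring pair on chromosome 8 had changes of opposite sign on overlapping intervals. The called R probe of chr8:122728333-122752130 was described above. The F probe of chr8:122712014-122732520 read 6.30, 6.04 and 6.14 in the controls and 5.23, 5.34 and 5.95 with TGF-β1. Its log2 fold change was −0.65 (adjusted p = 0.119 in limma), and the groups did not overlap.

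By chromosome, the share of members tested ranged from 40.0% on chromosome 18 to 61.0% on chromosome 17, and was 40.2% on the X chromosome. The median log2 fold change was below 0 on 16 of 20 chromosomes and above 0 on 4, between −0.16 on chromosome 19 and 0.054 on chromosome 18. With 75th percentile scaling 12 medians were above 0, and without TGF-β1 replicate 3 19 were below. The quartiles of every chromosome spanned 0. Called members lay on 9 chromosomes, with 3 on chromosome 9 and at most 2 on any other. Chromosome 10 had the highest share with an unadjusted p under 0.05 in limma, 41 of 86 tested (47.7%), and chromosome 17 the lowest with 18.4%. No member of chromosome 10 was called.

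**Figure D5:**
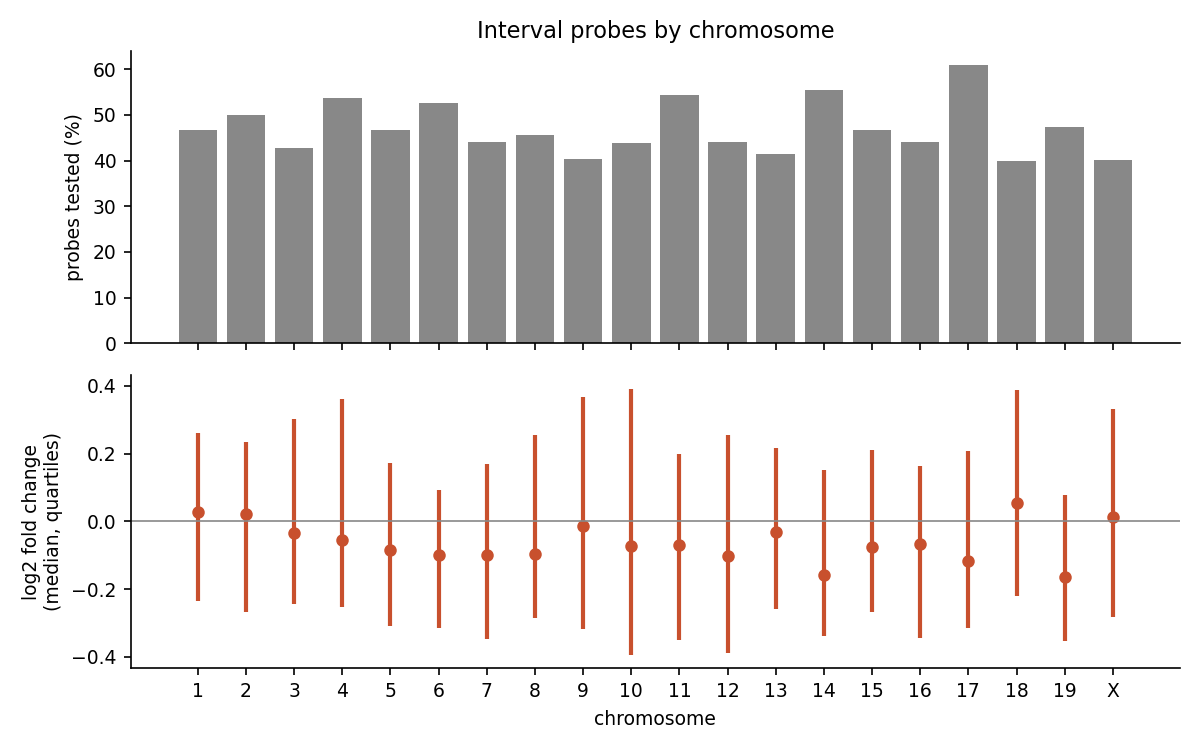
Share of interval probes tested (%, upper panel) and median log2 fold change with quartiles (lower panel) for each chromosome (x axis). The share tested was 40.0% to 61.0%, and every range of quartiles in the lower panel includes 0.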

How the data were processed

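RNA of 3 TGF-β1-treated and 3 control 2D-MAO cultures was measured on 6 single-dye Agilent arrays. The deposited files hold the intensity of each spot on a linear scale, background-subtracted and detrended by Agilent Feature Extraction 11.0.1.1 per the submitters' processing notes, with no normalisation between arrays. For arrays, their number limits the precision.

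Control spots and spots marked as uneven or as outliers were left out, and spots of a probe were averaged. Log2 intensities were quantile-normalised over all probes and compared with limma 3.58.1 in R 4.3.3 over the 32460 probes above background on at least 3 arrays, without further terms. A called member had a Benjamini-Hochberg adjusted p under 0.05 and a change of 2-fold or more. Lower bounds are between group means, the brighter set against the dimmest probes well above background of each array of the other group. Scripts were tested on simulated data. The planned normexp alternative used median spot signals with an offset of 50, as the files hold no mean.

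The members and lists were chosen with earlier results of these data known. Named members are the called ones above background on all 6 arrays or with a bound, up to 6 neighbourhoods with called members, the 4 with the most tested probes, and the 5 strand ratios of lowest p; none on chromosome 18 is named. The decreases under 2-fold are named by their adjusted p. For any other member the text says that it was picked with its values known. Alternatives covered scaling, background, filters, thresholds, the methods' t-test, variance prior, array weights, blocks, left-out arrays and interval means. Wider gaps, likeness of pairs and alternatives for strand ratios were added after the data were seen. RefSeq accessions were matched to symbols of GRCm38.p6, and no positions of that build were used. A gene planned for the treatment check is not reported here.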

Additional observations from a re-analysis of the deposited data

How the results depend on the processing

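In the reported comparison 10 members were higher and 5 lower, and the members' median was −0.068. The higher and lower counts were 18 and 3 with 75th percentile scaling, 4 and 2 with normexp background, 2 and 0 with no filter on dim probes, 25 and 6 with a trended robust prior, 76 and 24 with array weights, 8 and 3 with slide row as a block and 86 and 37 with slide row 1 alone. They were 16 and 8 with no fold threshold, and 41 and 14 with an unadjusted p in limma. The methods' t-test gave 29 and 11 unadjusted and 0 and 0 after Benjamini-Hochberg adjustment. With no filter 64 members rose and 40 fell 2-fold or more at an unadjusted p under 0.05 in limma. Leaving out each array in turn gave 1 to 66 higher and 0 to 31 lower, with medians of −0.10 to −0.011. The median was 0.031 with 75th percentile scaling. Detection on all 6 arrays and 1 value per interval name kept both counts within 1.5 times. The call was kept in 99 of 195 combinations of the 15 called members with 13 of these settings. These 13 leave out, among others, the fit with no filter and the adjusted t-test, each of which called 0 of the 15. No combination reversed direction. The groups did not overlap in any of the 15, so leaving out or weighting arrays could not reverse it. Blocks and the variance prior left each change as it was.

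The correlation of deviations between arrays of the same replicate number was 0.015, 0.25 and −0.082. Between arrays of unlike number it was −0.35 to 0.227. Arrays of the same number lay side by side on the slide, and whether their cultures shared a batch was not tested. With the replicate number as a block, 2 members were higher and 1 lower, all 3 among the 15. For the strand ratio the replicate block and the slide row block each gave 0 intervals, with 53 and 57 at an unadjusted p under 0.05 in limma, slide row 1 alone gave 30, and leaving out each array gave 0 to 32.

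The number of arrays, the dim signal of many members and the unlike TGF-β1 replicate 3 limit these counts. The cause of each shift was not tested. Position within an interval, the transcript bound and sharing of sequence between probes could not be read from the files.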
